A study of Mus musculus with 10 samples.

Results

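Collagens are the structural proteins of the extracellular matrix. Collagen chains are modified and folded into helical trimers in the endoplasmic reticulum. The fibrillar collagens are made as procollagens, which are secreted, trimmed and cross-linked outside the cell. In the heart the fibrillar collagens of types I and III, made mainly by fibroblasts, form the interstitial fibers that hold myocytes and vessels together, while other types decorate those fibers, build fine networks or sit in cell membranes. The genes described here are the 38 protein-coding genes of the mouse annotation whose symbol is Col, a number, the letter a and a number, with the collagen IV genes of the basement membrane left out. They were taken by symbol from the 56748 gene identifiers of the count tables and fall into 11 fibrillar, 9 fibril-associated, 9 network, 4 transmembrane and 5 other collagen genes.

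To ask how endurance training alters cardiac gene expression, bulk RNA sequencing was done on hearts of WT C57BL/6 mice that were bought at the age of 8 weeks and randomly assigned to forced treadmill exercise or to a sedentary control group. The training mice rested, were accustomed to the treadmill and then ran for 8 weeks at 15 m/min, 120 min per session on 5 days per week. The sedentary mice were of the same age, and no other allele was named for either group. The study's methods describe PET/CT scans of both groups, under isoflurane and after an injection of 18F-FDG, before the hearts were taken. The time from the last run to the removal of the heart is not given in the sources used here. Each of the 10 libraries, 5 per group, came from the whole heart of a separate mouse, with atria and ventricles together, and held between 29461697 and 39431030 reverse-strand counts on genes. Expression is given as CPM, a gene's counts relative to its library total after correction for library composition, or, where genes are compared with each other, as TPM, the authors' share of transcripts corrected for gene length. A gene was called changed at a false discovery rate (FDR) below 0.1 by the quasi-likelihood test of edgeR, Benjamini-Hochberg adjusted over all 15454 genes tested.

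The tissue label was checked against marker genes, and whole hearts mix many cell types, so that fewer cells of a type and less RNA per cell cannot be told apart in any result below. The 8 cardiomyocyte markers were present in each heart and summed to between 55630 and 59350 CPM in the training hearts and between 57520 and 65040 CPM in the sedentary hearts. The log2 fold changes of the 8 were below 0, none was called by edgeR (2 had an unadjusted p under 0.05), and DESeq2 called 3, Actn2, Myh6 and Ryr2. Over all 15454 genes tested edgeR called 7.01%, 2.75% higher and 4.26% lower, and the CPM of single genes did not overlap between groups in 5.06%. The 10 fibroblast markers summed to between 2815 and 3711 CPM after training and to between 2613 and 2972 CPM in sedentary hearts. Gsn alone averaged 1965 and 1574 CPM, beside mean sums of 3226 and 2731 CPM. By edgeR 2 of the 10, Pdgfra and Gsn, rose, while DESeq2 called 4, with Fbln1 and Tcf21 in addition. The log2 fold changes were above 0 for 8 and below 0 for 2, Ly6a at −0.13 and Pi16 at −0.05. Of 8 atrial markers, 7 were tested and 3, Sln, Dkk3 and Stard10, rose, with sums of 5185 to 7792 CPM against 2866 to 6969 CPM. The 7 log2 fold changes were above 0 with a median of 0.50, and 5 had an unadjusted edgeR p under 0.05. The sums of the 8 endothelial markers did not overlap, at 855.9 to 915.8 CPM after training and 943.9 to 987.5 CPM in sedentary hearts, and Tie1 and Esam among them fell. Of 9 activated fibroblast markers 1, Comp, rose, of 9 cartilage markers 5 were tested and 1, Acan, rose by edgeR (DESeq2 called 0), and of 8 mural cell markers Tagln rose and Rgs5 fell. The sums of those lists were 248 to 371.5 against 248.6 to 328.3 CPM, 12.36 to 18.66 against 11.49 to 14.06 CPM, and 1161 to 1319 against 1171 to 1343 CPM. No marker of epicardium (87.57 to 125 against 71.12 to 117.5 CPM), Schwann cells (19.13 to 24.21 against 17.65 to 22.05 CPM), adipocytes (21.07 to 173.6 against 18.98 to 140 CPM), macrophages (280.2 to 351.6 against 296.3 to 366.9 CPM) or skeletal muscle (5.241 to 7.603 against 5.11 to 8.148 CPM) was called by edgeR or DESeq2 at this threshold. An unadjusted edgeR p under 0.05 was found for 3 Schwann cell markers and for 0 markers of the other 4 lists. Log2 fold changes were above 0 for the 7 adipocyte markers (median 0.65), the 7 epicardial markers (median 0.12) and 6 of 7 Schwann cell markers. They were below 0 for 6 of 8 macrophage markers and 3 of 5 tested skeletal muscle markers. Among defining markers, Snorc of cartilage had a count of 0 in each heart, and Matn3 of cartilage and Myh1 and Myh4 of skeletal muscle had a count of 0 in some hearts. The part of these cell types in the collagen values was not tested beyond the fits with an atrial or a fibroblast marker score given with the results.

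Of the 4 collagen genes that were called, 3 have a promoter in the RefSeq promoter table used here. Their 300 bases, running from 250 before to 50 after the RefSeq start site, are given 5′ to 3′ on the strand of the gene, to show what lies in front of the collagen genes that moved. Each was matched to GRCm39, at chr4:126180337-126180636 on the plus strand for Col8a2, at chr9:20726314-20726613 on the minus strand for Col5a3 and at chr11:51180497-51180796 on the plus strand for Col23a1. Capitals mark the letters CCAAT and GGGCGG on either strand, the latter read as CCGCCC where it lies on the opposite strand.
Col8a2: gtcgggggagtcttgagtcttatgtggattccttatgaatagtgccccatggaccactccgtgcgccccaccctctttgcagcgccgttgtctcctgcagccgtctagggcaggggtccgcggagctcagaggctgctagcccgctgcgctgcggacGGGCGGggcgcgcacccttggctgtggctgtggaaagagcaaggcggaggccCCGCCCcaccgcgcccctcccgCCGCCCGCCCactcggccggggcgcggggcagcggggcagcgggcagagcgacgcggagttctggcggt
Col5a3: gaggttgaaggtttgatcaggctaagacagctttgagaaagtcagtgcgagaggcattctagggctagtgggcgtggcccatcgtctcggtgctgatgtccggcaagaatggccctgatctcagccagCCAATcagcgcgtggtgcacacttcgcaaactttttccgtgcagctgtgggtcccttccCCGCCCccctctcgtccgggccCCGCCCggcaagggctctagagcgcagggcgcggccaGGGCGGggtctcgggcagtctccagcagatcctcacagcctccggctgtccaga
Col23a1: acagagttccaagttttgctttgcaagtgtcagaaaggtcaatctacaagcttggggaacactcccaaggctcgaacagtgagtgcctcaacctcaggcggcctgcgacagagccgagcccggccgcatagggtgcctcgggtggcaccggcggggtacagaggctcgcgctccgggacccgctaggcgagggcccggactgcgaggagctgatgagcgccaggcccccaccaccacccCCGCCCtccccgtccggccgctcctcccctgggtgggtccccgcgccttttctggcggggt
The Col8a2 promoter was 71.7% G and C and held GGGCGG 4 times. The Col5a3 promoter was 63.3% G and C and held 1 CCAAT, whose first base lay 122 bases before the start site, and GGGCGG 3 times. The Col23a1 promoter was 67.7% G and C and held 1 GGGCGG. The median over all promoters of the table was 52.7% G and C. Of the 38 collagen genes, 30 had an entry in the table, Col14a1 not among them. GGGCGG was in the promoter of 18 of these 30 genes (60.0%) and in 35.7% of all 32851 promoters of the table. CCAAT was in 10 (33.3%, against 37.4% of all promoters) and TATAAA in 5 (16.7%, against 13.6%). A collagen gene was counted if any of its entries held the letters, while the shares of all promoters are per entry. Col18a1, Col6a2 and Col9a1 had 2 entries each. These matches describe letters only.

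Collagen RNA in the mouse heart was dominated by a few chains. Summed over the 38 genes, collagen TPM was 297 ± 42.2 (SD, n = 5) in the training hearts and 268 ± 33.8 (SD, n = 5) in the sedentary hearts, and the ranges, 244 to 360 and 224 to 300, overlapped. In CPM, corrected for library composition, the groups lay closer, at 1343 ± 145 and 1273 ± 119 (SD, n = 5 each). Those ranges, 1185 to 1571 and 1124 to 1386 CPM, overlapped too. The same genes took 0.137% of all gene counts after training and 0.125% in sedentary hearts. Averaged over the 10 hearts, Col3a1, the chain of type III collagen, made up 24.0% ± 2.80 (SD) of collagen TPM, and Col1a2 and Col1a1, the chains of type I collagen, made up 14.2% ± 0.881 and 11.5% ± 0.568. They were followed by Col6a2 with 10.5% and Col6a1 with 9.16%, both chains of the beaded filaments of type VI collagen, and by Col15a1 with 8.87%, a multiplexin near basement membranes. These 6 genes held 78.2% of collagen TPM.

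By class, the fibrillar genes held 57.6% ± 1.13 (SD, n = 5) of collagen TPM after training and 59.7% ± 3.55 (SD, n = 5) in sedentary hearts. The network genes held 25.2% and 25.4%, the other collagens 12.1% and 10.6%, the fibril-associated genes 4.60% and 3.84%, and the transmembrane genes 0.499% and 0.449%. In each class the ranges of the groups overlapped.

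**Figure D1:**
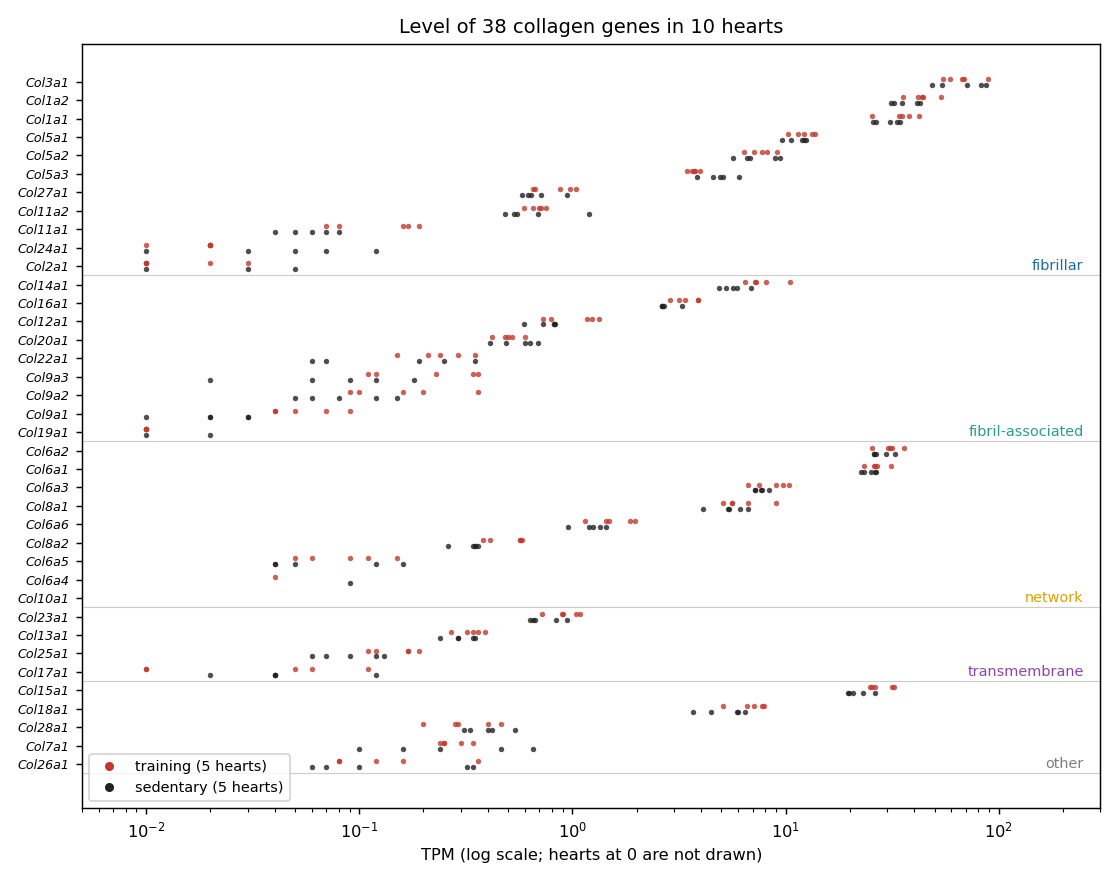
TPM of the 38 collagen genes by class on a log scale, with 1 point per heart, red for the 5 training and black for the 5 sedentary hearts. Col3a1 with a mean of 68.2 TPM, Col1a2 with 40.1 TPM and Col1a1 with 32.6 TPM lie furthest to the right, and Col10a1 has no point because it was at 0 in each heart.

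Of the 38 genes, 28 passed the filter on low counts and 10 did not. The 10 were Col2a1, Col9a1, Col9a2, Col9a3 and Col10a1, which are collagens of cartilage, Col17a1 of epithelial hemidesmosomes, and Col6a4, Col19a1, Col24a1 and Col26a1. None of them had more than 92 counts over all 10 hearts, and Col10a1 had 0 counts in each, which allows up to 0.0745 to 0.0995 CPM depending on the heart (3 counts, for counting error only). Those levels were too low for a comparison at this depth.

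Among the 28 tested genes 3 rose and 1 fell with training. Col14a1, Col8a2 and Col23a1 rose and Col5a3 fell, which is 14.3% of those tested. Over all 15454 genes 1084 were called, 7.01%, with 425 genes higher (2.75%) and 659 lower (4.26%). Scaled to library totals alone, 1029 genes were higher and 339 lower, and the collagen calls came to 6. An unadjusted p under 0.05 was found for 8 of the 28 genes. The collagen count depended on single hearts. It was 1 without training heart 3 or without sedentary heart 2, 3 or 4, with Col5a3 alone remaining. It was 2 without training heart 5, and 5 without training heart 1 or sedentary heart 5. Over all genes the calls fell in the same fits, to 188 higher and 352 lower without training heart 3. Without sedentary heart 2, 3 or 4 they were 222 and 389, 214 and 298, and 273 and 398. They were 281 and 455 without training heart 5, 370 and 621 without training heart 1, and 285 and 476 without sedentary heart 5. At an FDR below 0.05 Col5a3 alone was called. No collagen gene was called by edgeR once an atrial or a fibroblast marker score per heart was added to the model. Of the 28, 4 and 8 were then at an unadjusted p under 0.05. Calls over all genes fell as well, to 14 higher and 67 lower with the atrial score. With the fibroblast score they were 62 higher and 117 lower.

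The direction was uneven beyond the called genes. The log2 fold change was above 0 for 23 of the 28 genes and below 0 for 5, with a median of 0.14, while over all genes 50.1% were above 0 and the median was 0.00. Some lay close to 0, such as Col5a1 (0.0017), Col6a3 (0.02) and Col6a1 (0.02) above it and Col3a1 (−0.0031) and Col5a2 (−0.02) below it. Several chains varied together from heart to heart, as given below, so the genes are not independent. The count of signs was not tested. With the atrial score in the model 19 of the 28 were above 0, with a median of 0.08, and with the fibroblast score 16 were, with a median of 0.05. In 2 genes the CPM of the groups did not overlap, 1 higher (Col8a2) and 1 lower (Col5a3). Over all genes tested the groups did not overlap in 5.06%, higher after training in 2.12% and lower in 2.94%. The 28 collagen genes were longer than the genes tested as a whole, with median lengths of 5113 and 2392 bases, and richer in G and C, at 55.6% and 49.2%. With the trend on length removed 19 of the 28 log2 fold changes were above 0, with a median of 0.11, and with the trend on G and C content removed 22 were, with a median of 0.13. The same 4 collagen genes were called in either case.

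**Figure D2:**
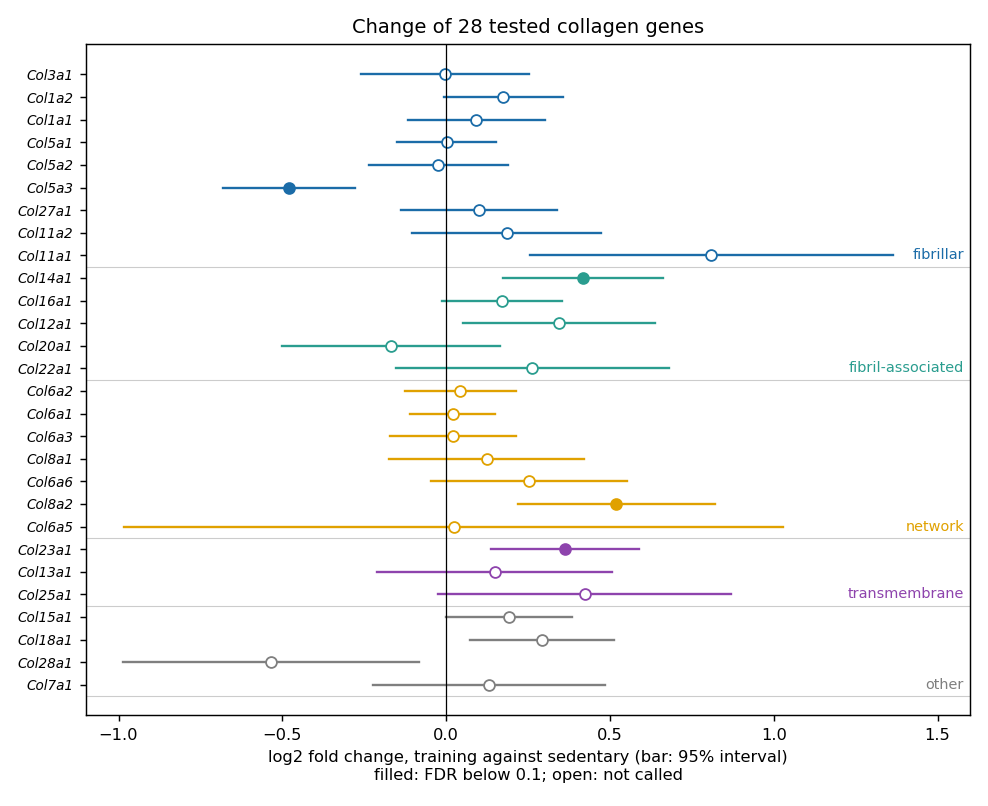
Log2 fold changes, training against sedentary, of the 28 tested collagen genes, ordered by TPM within each class, with 95% intervals and filled points for an FDR below 0.1. Filled points mark Col5a3 at −0.48, Col14a1 at 0.42, Col8a2 at 0.52 and Col23a1 at 0.36, and 23 of the 28 points lie to the right of 0.

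The fibrillar collagens form the load-bearing fibers. Of 9 tested, 1 was called, lower, and the median log2 fold change was 0.09 (6 genes above 0, 3 below). The most abundant of them were the chains of types III and I. Col3a1 (ENSMUSG00000026043, chr1:45350698-45395840 of GRCm39) was at 234, 275, 325, 260.4 and 237 CPM in training hearts 1 to 5 and at 309.6, 223, 322, 209 and 271 CPM in sedentary hearts 1 to 5. The groups lay over each other, and the log2 fold change was close to 0 with a 95% interval of −0.26 to 0.25. Col1a2 (ENSMUSG00000029661, chr6:4504814-4541555) was at 187, 202, 257, 216 and 204 CPM after training and at 207, 167, 209, 171 and 191 CPM in sedentary hearts. Training heart 3 was the highest, the groups overlapped, and the log2 fold change was 0.17 with a 95% interval of −0.01 to 0.36 (edgeR, adjusted p = 0.27). Col1a1 (ENSMUSG00000001506, chr11:94827050-94843868) was at 149, 192, 221, 189.9 and 176 CPM after training and at 186, 151, 196, 153 and 184 CPM in sedentary hearts. Here too the groups overlapped, with a log2 fold change of 0.09 and a 95% interval of −0.12 to 0.30 (edgeR, adjusted p = 0.655).

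Col5a3 (ENSMUSG00000004098, chr9:20681337-20726418, minus strand) fell. It encodes a chain of type V collagen, a minor fibrillar collagen that takes part in fibril assembly. It was at 23.1, 20.8, 23.7, 22.9 and 21.8 CPM in training hearts 1 to 5 and at 29.5, 39.4, 28.7, 25.6 and 33.6 CPM in sedentary hearts 1 to 5. In CPM each training heart lay below each sedentary heart, and sedentary heart 2 was the highest. In TPM the groups overlapped, with training heart 3 at 3.98 and sedentary heart 4 at 3.83. The means were 22.5 ± 1.15 CPM (SD, n = 5) and 31.4 ± 5.33 CPM (SD, n = 5), a change of −28.3%. The log2 fold change was −0.48 (SE 0.094, edgeR's quasi-likelihood test, Benjamini-Hochberg adjusted p = 0.0206). Without any single heart Col5a3 stayed called, with edgeR adjusted p between 0.0134 and 0.0509, and its log2 fold change was smallest without sedentary heart 2, at −0.39. With the atrial score in the model it was −0.30 (edgeR, adjusted p = 0.316), and with the fibroblast score −0.44 (edgeR, adjusted p = 0.134), neither past the threshold. The sums of the endothelial markers given above were likewise lower in each training heart than in any sedentary heart, and their part in the fall of Col5a3 was not tested.

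Col5a1 and Col5a2, the partner chains in type V collagen, are named here because they share trimers with Col5a3, after their values were seen. Col5a1 was at 62.5 ± 4.88 CPM after training and 62.4 ± 6.31 CPM in sedentary hearts (SD, n = 5 each), with a 95% interval of the log2 fold change of −0.15 to 0.15. Col5a2 was at 48.0 ± 4.96 and 48.8 ± 7.69 CPM (SD, n = 5 each), with an interval of −0.24 to 0.19. The number of Col5a3 counts for each Col5a1 count was 0.362 ± 0.0352 (SD, n = 5, range 0.309 to 0.403) after training and 0.509 ± 0.120 (SD, n = 5, range 0.413 to 0.715) in sedentary hearts. For Col5a2 the ratio was 0.472 ± 0.0524 (SD, n = 5, range 0.409 to 0.540) after training and 0.656 ± 0.150 (SD, n = 5, range 0.506 to 0.862) in sedentary hearts. The ranges did not overlap for Col5a1 and overlapped for Col5a2. Both ratios were chosen for the change of Col5a3 and are descriptions without a test.

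Of the remaining fibrillar genes, Col11a1, a chain of type XI collagen best known from cartilage, had the highest log2 fold change of all collagen genes tested and is named after its values were seen. It was at 0.551 ± 0.191 CPM after training and 0.316 ± 0.025 CPM in sedentary hearts (SD, n = 5 each), with 9 to 30 counts per heart. The log2 fold change was 0.81 (SE 0.258, edgeR, adjusted p = 0.103), which missed the threshold. It was called with counts of both strands and with scaling to library totals. Col27a1 and Col11a2 had log2 fold changes of 0.10 and 0.18.

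The fibril-associated collagens lie on the surface of fibrils and link them to other matrix. Of 5 tested, 1 rose, and 4 log2 fold changes were above 0 and 1 below, with a median of 0.26. Col14a1 (ENSMUSG00000022371, chr15:55171140-55384199, plus strand), the chain of type XIV collagen and the most abundant of the class at 6.81 ± 1.63 TPM (SD, n = 10), was the gene that rose. It was at 33.7, 28.1, 44.7, 35.3 and 31.3 CPM in training hearts 1 to 5 and at 31.2, 22.0, 24.8, 24.5 and 27.1 CPM in sedentary hearts 1 to 5. Training heart 3 was the highest, and sedentary heart 1 lay within the range of the training hearts. The means were 34.6 ± 6.25 and 25.9 ± 3.47 CPM (SD, n = 5 each), a log2 fold change of 0.42 (SE 0.114, edgeR's quasi-likelihood test, Benjamini-Hochberg adjusted p = 0.0626). The call was lost without training heart 3 or 4 or without sedentary heart 2, 3 or 4, with edgeR adjusted p of 0.124 to 0.135, and the log2 fold change was 0.31 without training heart 3. With the atrial or the fibroblast score in the model it was 0.18 in either case (edgeR, adjusted p = 0.628 and 0.432).

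Col16a1 (ENSMUSG00000040690), the chain of type XVI collagen, was at 11.0, 13.8, 14.5, 12.8 and 11.8 CPM after training and at 12.9, 10.7, 11.7, 10.1 and 11.4 CPM in sedentary hearts. The groups overlapped, with a log2 fold change of 0.17 (edgeR, adjusted p = 0.285). Col12a1 (ENSMUSG00000032332), a relative of Col14a1 best known from tendon and ligament, was at 4.90, 7.16, 8.22, 6.85 and 5.08 CPM after training and at 5.61, 4.73, 5.24, 4.38 and 5.40 CPM in sedentary hearts. Training hearts 2, 3 and 4 lay above all sedentary hearts and training hearts 1 and 5 among them, and the log2 fold change of 0.35 missed the threshold (edgeR, adjusted p = 0.178). Col20a1 and Col22a1 had log2 fold changes of −0.17 and 0.26 and were not called.

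**Figure D3:**
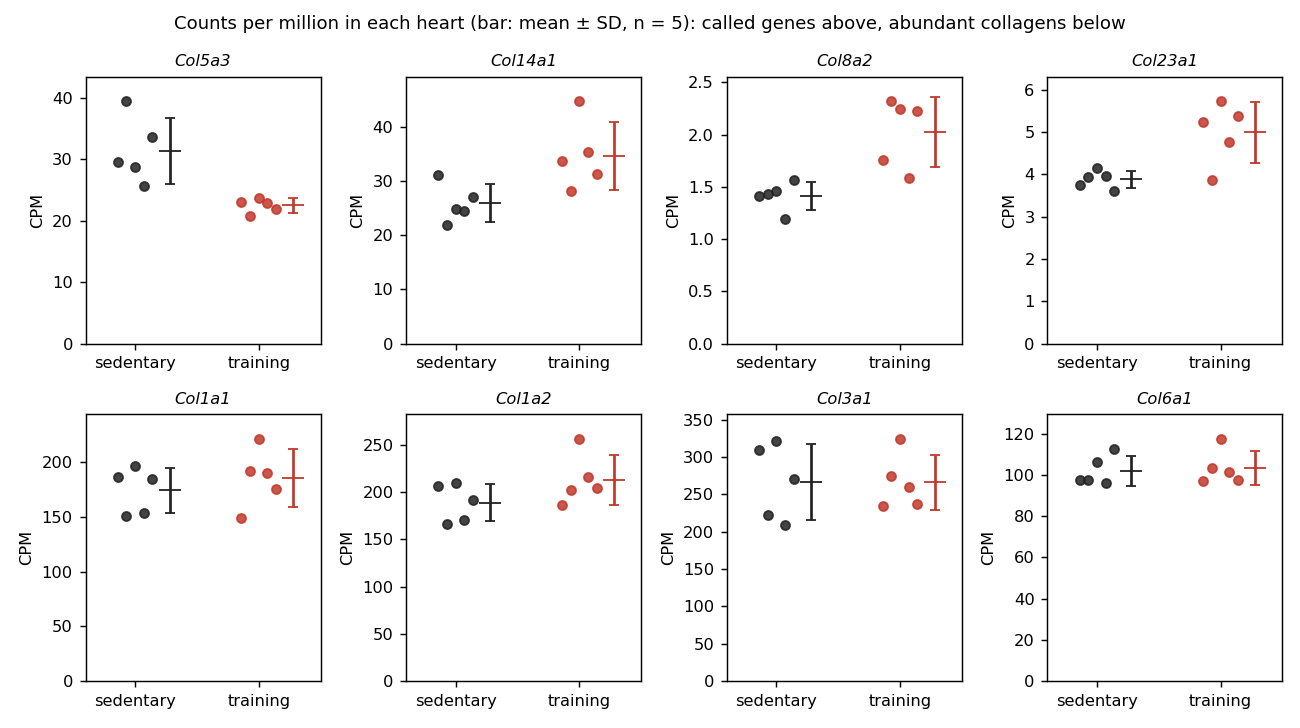
CPM in each heart for the 4 called collagen genes (top) and 4 abundant ones (bottom), black for sedentary and red for training, with the mean ± SD beside the points. Col5a3 and Col8a2 separate the groups, Col14a1 and Col23a1 overlap in 1 or more hearts, and the abundant chains lie over each other.

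The network collagens build beaded filaments (type VI) or hexagonal lattices (types VIII and X). Of 7 tested, 1 rose, and the 7 log2 fold changes were above 0 with a median of 0.04. The chains of type VI collagen that are most abundant in the heart were nearly level. Col6a2 (ENSMUSG00000020241, chr10:76429660-76459549) was at 104, 120.5, 134, 117 and 113 CPM after training and at 100.0, 108, 117, 112 and 136 CPM in sedentary hearts. Its log2 fold change was 0.04 with a 95% interval of −0.13 to 0.21. Col6a1 (ENSMUSG00000001119, chr10:76543440-76562283) was at 97.2, 103, 118, 101 and 97.8 CPM after training and at 97.5, 97.4, 106, 95.9 and 113 CPM in sedentary hearts, with a log2 fold change of 0.02 and an interval of −0.11 to 0.15. Col6a3 (ENSMUSG00000048126) was at 45.0, 60.0, 66.2, 54.2 and 52.6 CPM after training and at 50.3, 52.6, 54.1, 53.9 and 63.3 CPM in sedentary hearts, with a log2 fold change of 0.02 and an interval of −0.17 to 0.21. In these 3 genes the highest sedentary heart was number 5 and the highest training heart number 3, and the groups overlapped.

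Col8a2 (ENSMUSG00000056174, chr4:126180559-126208123, plus strand) rose. It encodes a chain of type VIII collagen, a short-chain collagen of vessel walls and of the corneal endothelium. It was at 1.75, 2.32, 2.25, 1.59 and 2.22 CPM in training hearts 1 to 5 and at 1.42, 1.43, 1.46, 1.20 and 1.56 CPM in sedentary hearts 1 to 5. The groups did not overlap, but training heart 4 and sedentary heart 5 were close. The means were 2.03 ± 0.332 and 1.41 ± 0.135 CPM (SD, n = 5 each), a log2 fold change of 0.52 (SE 0.140, edgeR's quasi-likelihood test, Benjamini-Hochberg adjusted p = 0.0607). The gene had 42 to 84 counts per heart, and the call was lost without training heart 2, 3 or 5 or without sedentary heart 2, 3 or 4, with edgeR adjusted p of 0.101 to 0.141. The log2 fold change was 0.61 with the atrial score (edgeR, adjusted p = 0.244) and 0.51 with the fibroblast score (edgeR, adjusted p = 0.236), neither past the threshold. Col8a1, the other chain of type VIII collagen, was at 30.2 ± 7.24 and 27.8 ± 4.10 CPM (SD, n = 5 each), with a 95% interval of the log2 fold change of −0.17 to 0.42. The number of Col8a2 counts for each Col8a1 count was 0.0685 ± 0.0127 after training and 0.0514 ± 0.00462 in sedentary hearts (SD, n = 5 each), a ratio chosen after the values were seen and not tested. Col6a6 and Col6a5 had log2 fold changes of 0.25 and 0.02, the latter with an SE of 0.469.

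The transmembrane collagens are anchored in the plasma membrane and can be shed from it. Of 3 tested, 1 rose, and the 3 log2 fold changes were above 0 with a median of 0.36. Col23a1 (ENSMUSG00000063564, chr11:51180566-51474745, plus strand) was the gene that rose. It was at 5.24, 3.87, 5.73, 4.76 and 5.37 CPM in training hearts 1 to 5 and at 3.75, 3.94, 4.15, 3.96 and 3.62 CPM in sedentary hearts 1 to 5. Training heart 2 lay among the sedentary hearts and the other 4 above them. The means were 4.99 ± 0.719 and 3.88 ± 0.206 CPM (SD, n = 5 each), a log2 fold change of 0.36 (SE 0.105, edgeR's quasi-likelihood test, Benjamini-Hochberg adjusted p = 0.075). This adjusted p was the highest of the 4 collagen calls. The call was kept without training heart 2 or sedentary heart 1 and lost without any of the other 8 hearts, with edgeR adjusted p of 0.114 to 0.173. With the atrial score the log2 fold change was 0.28 (edgeR, adjusted p = 0.501), and with the fibroblast score 0.30 (edgeR, adjusted p = 0.35).

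Col13a1 (ENSMUSG00000058806), a transmembrane collagen of cell adhesion sites and the neuromuscular junction, was at 1.16, 1.00, 1.12, 0.934 and 0.730 CPM after training and at 0.994, 0.905, 0.719, 0.996 and 0.877 CPM in sedentary hearts. The groups overlapped, with a log2 fold change of 0.15 (edgeR, adjusted p = 0.675). Col25a1 (ENSMUSG00000058897), a transmembrane collagen known from neurons, was at 0.877, 0.687, 0.642, 0.809 and 0.962 CPM after training and at 0.522, 0.788, 0.479, 0.740 and 0.438 CPM in sedentary hearts. Training hearts 1, 4 and 5 were the highest, and the log2 fold change of 0.42 had a 95% interval of −0.03 to 0.87 at 16 to 31 counts per heart (edgeR, adjusted p = 0.279).

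Of the 4 other collagens tested none was called by edgeR, while 2 had an unadjusted p under 0.05 and DESeq2 called 1, Col18a1. Col15a1 (ENSMUSG00000028339, chr4:47207582-47313179), a multiplexin between basement membranes and fibrils, was at 108, 122, 129, 107 and 111 CPM after training and at 83.7, 111, 94.6, 93.0 and 122 CPM in sedentary hearts. The groups overlapped through sedentary hearts 2 and 5, and the log2 fold change was 0.19 (edgeR, adjusted p = 0.254). Col18a1 (ENSMUSG00000001435, chr10:76888012-77002390), the multiplexin whose end is released as endostatin, was at 25.2, 29.4, 35.2, 31.9 and 30.4 CPM after training and at 26.5, 23.1, 26.2, 19.4 and 28.8 CPM in sedentary hearts. All training hearts but number 1 lay above all sedentary hearts, and the log2 fold change of 0.29 (SE 0.102) missed the threshold (edgeR, adjusted p = 0.132). It was called by DESeq2, with scaling to library totals and with no filter on low counts. Col28a1 (ENSMUSG00000068794), a minor collagen of peripheral nerve, was at 1.22, 0.773, 1.1, 1.8 and 0.995 CPM after training and at 2.01, 1.78, 1.28, 1.99 and 1.45 CPM in sedentary hearts. Its log2 fold change of −0.53 was not past the threshold (edgeR, adjusted p = 0.178), and training heart 4 lay among the sedentary hearts. Col7a1, of the anchoring fibrils of skin, had a log2 fold change of 0.13.

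Ratios of chains within each heart do not depend on library size. For 8 ratios, most of them of chains that share a trimer or a fibril, the groups overlapped, and none passed the test, in which the 10 hearts were reassigned to the groups in every possible way (exact permutation, two-sided, smallest possible p of 0.00794). The number of Col1a1 counts for each Col1a2 count was 0.869 ± 0.0541 (SD, n = 5) after training and 0.921 ± 0.0289 (SD, n = 5) in sedentary hearts (exact p = 0.111, adjusted p = 0.635 over 8 ratios). For Col1a1 and Col3a1 the ratio was 0.697 ± 0.0413 and 0.661 ± 0.0556 (exact permutation p = 0.238, adjusted p = 0.635). The ratio of Col6a1 to Col6a2 was 0.878 ± 0.0298 and 0.895 ± 0.0559 (exact permutation p = 0.611, adjusted p = 0.913), and that of Col15a1 to Col18a1 was 3.82 ± 0.385 and 4.12 ± 0.724 (exact permutation p = 0.524, adjusted p = 0.913). The ratios Col5a1/Col5a2, Col5a2/Col1a1, Col6a3/Col6a1 and Col8a1/Col1a1 had exact permutation p-values between 0.198 and 0.913.

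**Figure D4:**
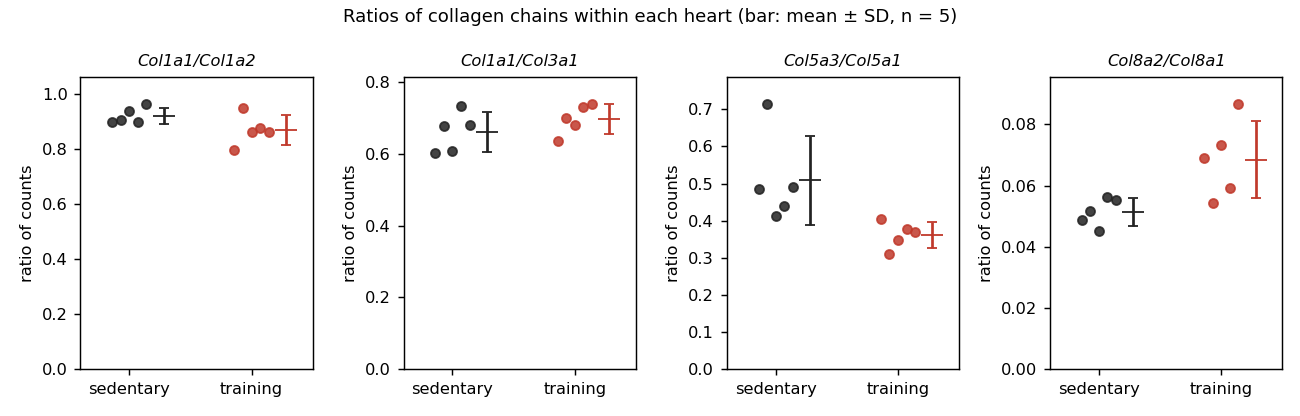
Ratios of counts within each heart, black for sedentary and red for training, with the mean ± SD beside the points. Col1a1/Col1a2 and Col1a1/Col3a1 overlap, while Col5a3/Col5a1, chosen after the values were seen, separates the groups at 0.309 to 0.403 against 0.413 to 0.715.

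Within the groups, Col1a1 varied together with Col1a2, Col3a1 and Col5a2 from heart to heart. After the group mean was removed, Col1a1 and Col1a2 varied together over the 10 hearts (Pearson r = 0.934, exact permutation p = 0.00208, adjusted p = 0.00624 over 9 pairs, Spearman rho = 0.939, exact permutation p = 0.00187, adjusted p = 0.00841). Without the 2 hearts farthest from the median of Col1a1, r was 0.918. Col1a1 and Col3a1 gave r = 0.903 (exact permutation p = 0.000208, adjusted p = 0.00187) and rho = 0.939 (exact permutation p = 0.000278, adjusted p = 0.0025), and r = 0.958 without the 2 hearts. Col1a1 and Col5a2 gave r = 0.805 (exact permutation p = 0.00917, adjusted p = 0.0206) and rho = 0.794 (exact permutation p = 0.0128, adjusted p = 0.0288), and r = 0.863 without the 2 hearts.

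Col6a1 and Col6a2, neighbors on chromosome 10 with 83890 bases between them, gave r = 0.897 (exact permutation p = 0.00139, adjusted p = 0.00624) and rho = 0.818 (exact permutation p = 0.0084, adjusted p = 0.0252). Without training heart 3 and sedentary heart 5, the 2 farthest from the median of Col6a1, r was lower, at 0.682 (exact permutation p = 0.115 over 8 hearts). The multiplexins Col15a1 and Col18a1 gave r = 0.363 (exact permutation p = 0.382, adjusted p = 0.491) and rho = 0.382 (exact permutation p = 0.35), and r = −0.177 without the 2 farthest hearts. Col1a1 and Col15a1 gave r = 0.184 (exact permutation p = 0.605) and rho = 0.212 (exact permutation p = 0.574), and r = 0.329 without the 2 farthest hearts.

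The fibroblast marker score, which holds no collagen gene, gave r = 0.821 with Col3a1 (exact permutation p = 0.0128, adjusted p = 0.023, rho = 0.758, exact permutation p = 0.0293, adjusted p = 0.0527), and r = 0.771 (exact permutation p = 0.0573) without the 2 farthest hearts, training heart 3 and sedentary heart 4. With Col1a1 it gave r = 0.657 (exact permutation p = 0.0536, adjusted p = 0.0804) and rho = 0.673 (exact permutation p = 0.0512), and r = 0.747 without the 2 farthest hearts. With Col15a1 it gave r = −0.314 (exact permutation p = 0.437) and rho = −0.285 (exact permutation p = 0.472), and r = −0.723 (exact permutation p = 0.0729) without the 2 farthest hearts. Each of these relations is over 10 hearts with shared library composition.

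Collagen chains depend on a set of enzymes, chaperones and receptors. Of 55 such genes 54 were tested, and 2 rose and 3 fell, which is 9.26% of those tested, beside 7.01% over all genes. The log2 fold changes had a median of −0.01, and 23 lay above 0 and 31 below. No call was made by edgeR or DESeq2 among folding and export (13 genes, with none at an unadjusted p under 0.05), propeptide removal (8 genes, 1 at an unadjusted p under 0.05), cross-linking (5 genes, none) and peptide turnover (4 genes, none). Lists this short cannot set 0 calls apart from the share of 7.01% over all genes.

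Of the 15 genes of prolyl and lysyl modification 2 rose and 2 fell (26.7% called). Among the receptors 1 of 9 tested fell (11.1%), beside 7.01% called over all genes. P4ha2 (ENSMUSG00000018906), a catalytic subunit of prolyl 4-hydroxylase, was at 48.1, 45.7, 47.3, 43.0 and 43.2 CPM in training hearts 1 to 5 and at 50.5, 53.8, 53.1, 51.5 and 51.9 CPM in sedentary hearts 1 to 5. The groups did not overlap, and the log2 fold change was −0.20 (SE 0.0427, edgeR, adjusted p = 0.0279), called without any single heart. Plod1, a lysyl hydroxylase, fell from 115 ± 5.08 to 101 ± 6.34 CPM (SD, n = 5 each, log2 fold change −0.18, edgeR, adjusted p = 0.0572). Itga1, the collagen-binding chain of an integrin, fell from 68.0 ± 5.72 to 57.0 ± 3.52 CPM (SD, n = 5 each, log2 fold change −0.25, edgeR, adjusted p = 0.0406).

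Crtap, a member of the prolyl 3-hydroxylation complex, rose from 23.8 ± 0.487 to 26.8 ± 1.70 CPM without overlap (SD, n = 5 each, log2 fold change 0.17, edgeR, adjusted p = 0.0714). P3h3, which works with a lysyl hydroxylase, rose from 13.6 ± 1.57 to 16.5 ± 1.63 CPM (SD, n = 5 each, log2 fold change 0.28, edgeR, adjusted p = 0.0935). The 5 processing genes were not called with the atrial or the fibroblast score in the model. Their log2 fold changes were then −0.18 and −0.21 for P4ha2, −0.25 and −0.26 for Itga1, −0.10 and −0.12 for Plod1, 0.13 and 0.12 for Crtap and 0.21 and 0.14 for P3h3. Plod1 and Itga1 were also lost with scaling to library totals, Crtap with no filter on low counts and P3h3 with expected counts (edgeR, adjusted p of 0.143, 0.106, 0.149 and 0.125). Leaving out a heart changed the calls of 4 of them. Plod1 was lost without training heart 3 or 4 or sedentary heart 2, 3, 4 or 5, Itga1 without training heart 3 or sedentary heart 3, and Crtap and P3h3 without any heart other than training heart 2 and sedentary heart 1.

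The most abundant gene of each list was not called by edgeR. P4hb, the other subunit of prolyl 4-hydroxylase, had a log2 fold change of 0.11 (edgeR, adjusted p = 0.128), and it was called by DESeq2 (adjusted p = 0.0387) and with scaling to library totals (edgeR, adjusted p = 0.0501). Serpinh1, the collagen chaperone, was at 189 ± 24.6 and 189 ± 4.63 CPM (SD, n = 5 each), with a 95% interval of the log2 fold change of −0.15 to 0.15. Pcolce, an enhancer of propeptide cleavage, Loxl1, a cross-linking lysyl oxidase, Itgb1, the shared chain of the collagen-binding integrins, and Pepd, which splits proline-containing dipeptides, had log2 fold changes of −0.06, −0.04, −0.01 and 0.04.

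**Figure D5:**
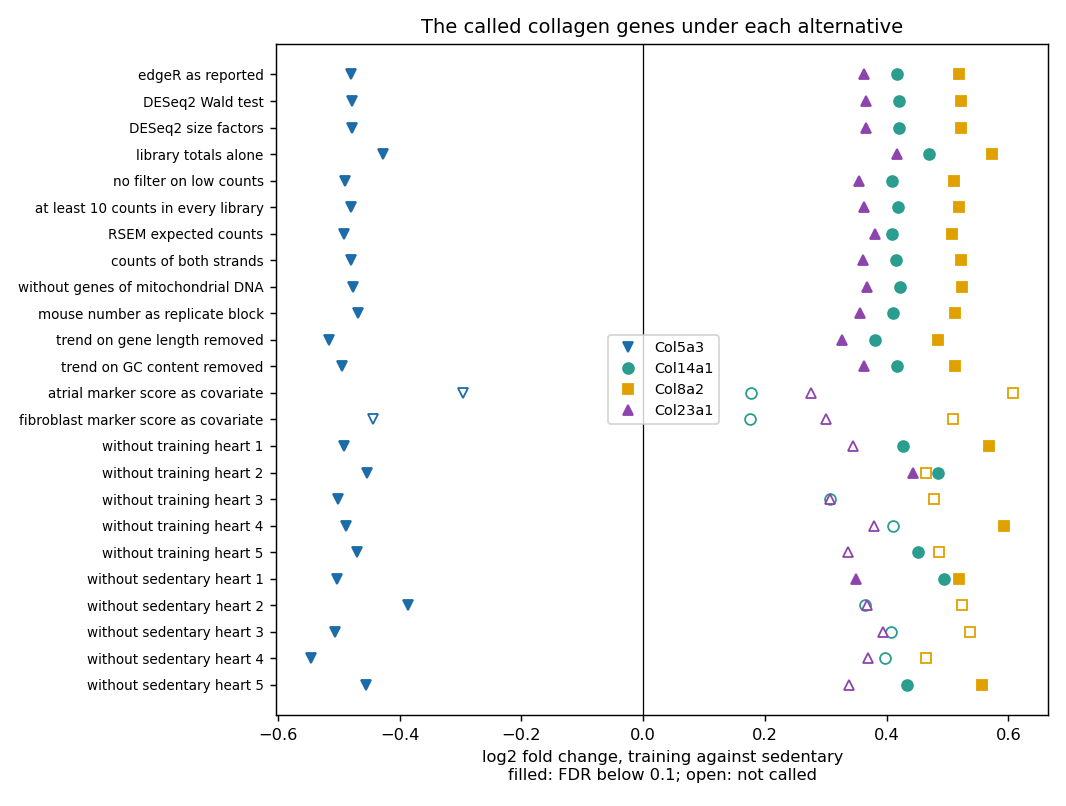
Log2 fold changes of the 4 called collagen genes under each way of processing the counts and with each heart left out, filled where the FDR was below 0.1. Col5a3 stays left of 0 and the other 3 right of 0 throughout, and no point is filled with the atrial or the fibroblast score in the model.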

How the data were processed

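RNA of 10 whole mouse hearts, 1 library per mouse, was sequenced by the authors as directional poly-A libraries in 1 pool with single reads of 100 bases. The authors deposited gene counts of STAR 2.7.10a against GRCm39 for every heart, which hold unique reads, unscaled and unfiltered, for either strand and for both, and expected counts (estimated counts, not whole numbers) and TPM per gene from RSEM 1.3.3, whose strand setting is not given in the sources used here. The reverse-strand counts were used here, 29461697 to 35945417 per training heart and 35196993 to 39431030 per sedentary heart. Lines that name no gene were left out. At this depth 3 counts are worth 0.0745 to 0.0995 CPM.

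Symbols came from GENCODE M39 by Ensembl identifier (56017 of 56748 matched). Groups and mouse numbers came from the sample titles. Genes were filtered with filterByExpr (minimum count 10, 5 libraries), scaled with TMM factors and tested with edgeR 4.0.16 (R 4.3.3, glmQLFit and glmQLFTest, Benjamini-Hochberg adjustment, FDR below 0.1) over the 10 hearts without covariates. SD is between mice. Ratios and relations were tested by exact two-sided permutation (all assignments of 5 against 5 hearts, all pairings within groups). Values in each heart are given for called collagen genes, those whose groups do not overlap and the 3 with the highest mean TPM of each class, and of the lists of processing genes for called genes and the most abundant gene. The collagen genes, the lists of processing genes and the marker lists were chosen with earlier results of these data known. The scripts were tested on simulated data.

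Alternatives were DESeq2 1.42.0, its size factors, library totals alone, 2 other filters, rounded expected counts, counts of both strands, no mitochondrial genes, the mouse number as a replicate block, removal of trends on gene length or GC content, an atrial or a fibroblast marker score as covariate, an FDR below 0.05, and each heart left out. The deposited FPKM columns were not used.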

Additional observations from a re-analysis of the deposited data

Results flagged for a closer look

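Col6a3, a chain of type VI collagen, stood apart in 1 sedentary heart. Sedentary heart 5 was at 63.3 CPM, while the other 4 sedentary hearts lay between 50.3 and 54.1 CPM. The gap to the next heart was 0.711 of the range of the group, just above the limit of 0.71 for groups of 5 (Dixon's test). Of 56 groups examined in this way, chance alone would set apart about 2.8.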

How the results depend on the processing

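The genes called were 1084 over all genes, 4 collagen genes and 5 processing genes. At an FDR below 0.05 they were 505, 1 (Col5a3) and 2 (Itga1 and P4ha2). They were 81, 0 and 0 with the atrial score as a covariate, and 179, 0 and 1 (Lox) with the fibroblast score. With each heart left out in turn they ranged from 512 to 1490, from 1 to 5 and from 1 to 7. Under the other 11 alternatives the 4 collagen genes were called each time, with Col18a1 added by DESeq2 and with no filter, Col11a1 with counts of both strands, and both with library totals.

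Among the log2 fold changes of named genes, signs turned in those close to 0. Col3a1 was 0.0476 with library totals, 0.0013 without mitochondrial genes and 0.0076 with the replicate block, and Col1a1 was −0.0043 with the atrial score. With the fibroblast score Col1a1 was −0.0704, Col1a2 −0.0018, Col6a1 −0.0371 and Col6a3 −0.0133, and with the length trend removed Col6a1 was −0.0141 and Col6a3 −0.0122. Serpinh1 was 0.0015 with DESeq2 or its size factors, 0.0543 with library totals and 0.0033 without mitochondrial genes, and Loxl1 and Itgb1 were 0.0107 and 0.0458 with library totals. With a heart left out Col3a1 ranged from −0.0848 to 0.0787, Col6a2 from −0.0084 to 0.1115, Col6a1 from −0.0301 to 0.0585, Col6a3 from −0.0511 to 0.0874, Serpinh1 from −0.0626 to 0.0405, Loxl1 from −0.1132 to 0.0384 and Itgb1 from −0.0224 to 0.0103. The cause was not tested.

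The log2 difference of the ratio Col6a3/Col6a1 was 0.0558 in TPM, and −0.0376 to 0.0440 with a heart left out. Those of Col1a1/Col1a2 then ranged from −0.1166 to −0.0538, of Col5a1/Col5a2 from −0.0473 to 0.0770, of Col6a1/Col6a2 from −0.0527 to 0.0056 and of Col8a1/Col1a1 from −0.0954 to 0.0738. Without training heart 2, whose ratio of 0.949 was the highest of the training hearts, Col1a1/Col1a2 had an exact permutation p of 0.00794. The ratios of the groups then did not overlap, and that p was the smallest the test can give with this heart left out. It was not adjusted over the 8 ratios, and with the 10 hearts the exact permutation p was 0.111 (adjusted p = 0.635). Without the 2 farthest hearts r was 0.682 for Col6a1 and Col6a2, −0.177 for Col15a1 and Col18a1 and 0.771 for Col3a1 and the fibroblast score. From expected counts, scaled to their totals without correction for library composition, r was 0.765 for Col1a1 and the fibroblast score (exact permutation p = 0.0233). This p was not adjusted over the 9 pairs.

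The mouse numbers did not pair the hearts. Deviations of same-numbered hearts correlated at −0.097 to 0.159, over 0.1 in 2 of 5 pairs, and 3 of 10 hearts correlated best with their own number. With the mouse number as a replicate block 1137 genes and the same 4 collagen genes were called, and P3h3 was not (edgeR, adjusted p = 0.111). Depth limited the 10 untested genes and those of under 100 counts per heart, such as Col8a2 and Col11a1.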

Other observations

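In a directional library few reads should fall on the forward strand of a gene. Summed over the 38 collagen genes, the forward strand held 0.639% of the counts on either strand in training heart 1, 0.406% in sedentary heart 3 and 0.297% in training heart 3, and between 0.0983% and 0.16% in the other 7 hearts. Over all genes the reverse strand held between 94.9% (training heart 1) and 95.6% (sedentary heart 5) of such counts. The forward share of the collagen genes was thus far below that of all genes in each heart. The called collagen genes were the same 4 when counts of both strands were used, with Col11a1 in addition.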
